A study of Oryctolagus cuniculus with 12 samples.

Results

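The interaction of lipopolysaccharide (LPS) and cyclosporine A (CsA) in the rabbit uterine body was measured as the effect of CsA in LPS-treated animals minus the effect of CsA in untreated animals. For each gene this is (LPS+CsA minus LPS) minus (CsA minus Control) on a log2(FPKM + 1) scale. FPKM is the number of fragments scaled to transcript length and to the mapped fragments of the library. A value of 0 means that CsA shifted the gene by the same amount with and without LPS. The contrast uses all 12 libraries, 3 animals in each of 4 groups, and was taken over the 12794 of 17301 genes that reached 1 FPKM in at least 3 of the 12 libraries.

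All animals were New Zealand White rabbits whose estrus and ovulation had been synchronised with the gonadotropins eCG and hCG, so every group carries that treatment. Control animals received vehicle only. The LPS group received 4 mg/kg of LPS of serotype 055:B5, the CsA group 20 mg/kg of CsA by intramuscular injection, and the LPS+CsA group both. The labels date the CsA or vehicle injection to 3 h after the infusion of LPS or vehicle, and tissue collection to 3 h of treatment. The submitters' texts disagree on whether LPS was infused into the vagina or the uterus, and on the vehicle of the CsA injection. The animals' age was not given in the sources used here. Each library is 1 animal and whole tissue, so more cells of a type and more RNA per cell cannot be told apart.

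LPS is the outer-membrane glycolipid of Gram-negative bacteria. It is sensed by Toll-like receptor 4, which switches on NF-kB target genes and interferon-stimulated genes in leukocytes, stroma and epithelium. CsA binds cyclophilin A and the complex blocks calcineurin, the phosphatase that activates NFAT in T cells. The uterine mucosa also holds plasma cells, which secrete polymeric IgA and IgM joined by the J chain for transport across the epithelium.

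Between 11945 and 12398 genes reached 1 FPKM in each library, and the 10 most abundant genes held 15.4% to 20.3% of the summed FPKM. CsA replicate 2 led the first principal component, with 19.9% of the variance, and LPS replicate 1 led the second, with 17.1%. Where leaving out a library moved an interaction described below by over 1.5 times, the value without it is given. Total read counts per library were not used. The authors' read counts per gene cover only the genes and comparisons that they list, and no CsA library. The depth behind most FPKM values is therefore unknown. Gene names came from the authors' deposited tables, which name 261 of the tested genes. Those tables list genes that differed between LPS and Control or between LPS+CsA and LPS, and both comparisons share the LPS libraries with the interaction. Counts over named genes are therefore favoured towards an interaction and are not independent evidence of one. Among the 261, no marker of smooth muscle, stroma or endothelium had a name, so the tissue label could not be checked from those markers. List members and markers are called tested below only where they are among the 261, so others may be expressed unseen.

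No gene passed the interaction test at an adjusted p of 0.05 with limma and Benjamini-Hochberg adjustment, and the smallest adjusted p was 0.497. Without LPS replicate 1 a single gene passed, ENSOCUG00000025431, with an adjusted p of 1.18e-05. It stood at 221 and 197 FPKM in LPS replicates 2 and 3 and at 1.34 FPKM or less in the 10 other libraries, LPS replicate 1 included. At an unadjusted p under 0.05 there were 392 genes, or 3.06% of those tested, below the 5% that this threshold admits when no gene differs. The count was 611 without Control replicate 2. Of the 392, the interaction was above 0 for 224 genes (1.75% of those tested) and below 0 for 168 (1.31%). An interaction of at least 2-fold at that p was seen for 103 genes above 0 (0.805%) and 40 below 0 (0.313%). At any p, 236 genes (1.84%) were 2-fold or more above 0 and 123 (0.961%) below. In the same fit, the difference between 2 groups reached an unadjusted p under 0.05 for more genes: 839 (6.56%) for LPS against Control, 594 (4.64%) for CsA against Control, 1031 (8.06%) for LPS+CsA against LPS and 892 (6.97%) for LPS+CsA against CsA. The median standard error was 0.264 for the interaction and 0.187 for a difference of 2 groups.

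The median interaction over all tested genes was -0.02, and 90% of genes lay between -0.50 and 0.59. The effects of CsA alone and of CsA on top of LPS share no library, and across the 12794 genes they were only weakly related, with a Pearson correlation of 0.138 and a Spearman correlation of 0.299. These are descriptions across genes of the same tissue and processing, not across independent samples. The Pearson correlation was 0.023 without CsA replicate 2. Both effects had the same sign for 62.3% of genes. Of the genes that moved 2-fold or more in both settings, 18 moved the same way and 26 in opposite ways. The interaction genes were mostly of the opposing kind: 205 of the 224 above 0 and 157 of the 168 below 0 had CsA effects of opposite sign, as the construction of the contrast favours.

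**Figure D1:**
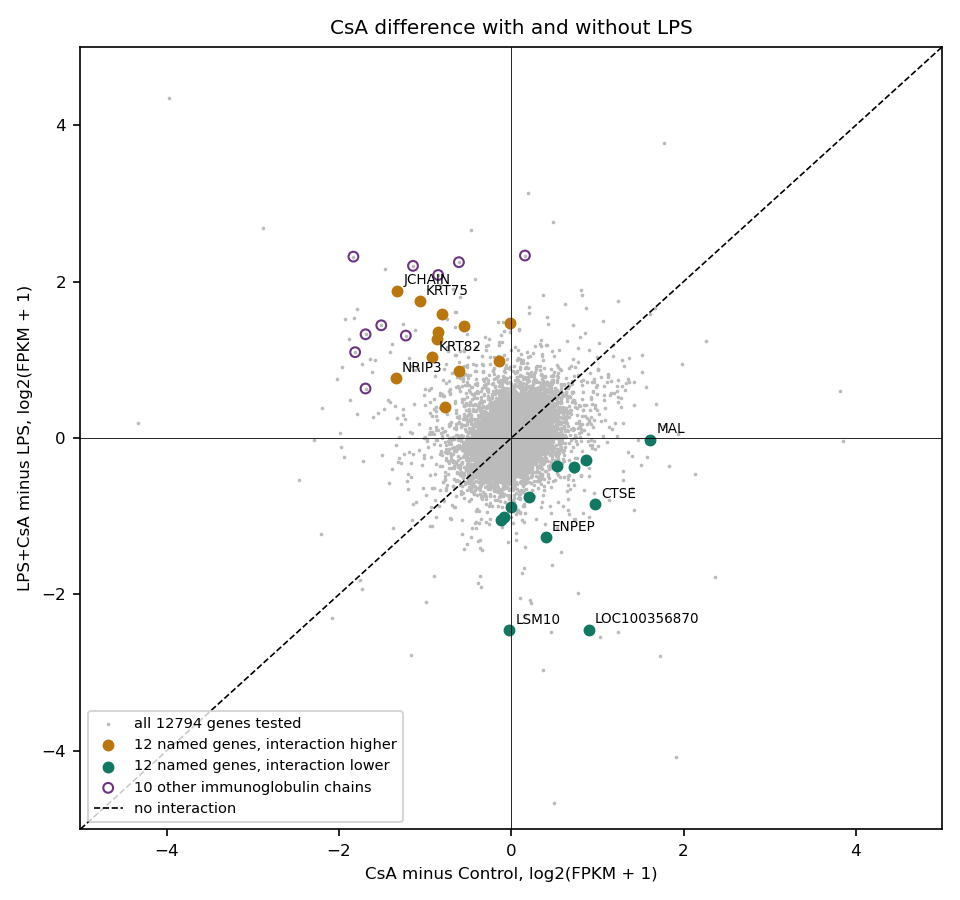
Effect of CsA without LPS (x axis) against its effect with LPS (y axis), both as differences of group means in log2(FPKM + 1), for the 12794 tested genes. Genes on the dashed line have no interaction, and hollow circles are the 10 immunoglobulin chains other than IGHM. The named genes with a positive interaction, such as JCHAIN and KRT75, sit left of 0 and above the line, and LSM10 and LOC100356870 lie below it.

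Genes at which 1 group stood apart were counted without a test. The 3 LPS libraries were above the other 9 at 226 genes (1.77%) and below them at 168 (1.31%). The 3 LPS+CsA libraries were above the other 9 at 81 genes (0.633%) and below at 45 (0.352%). CsA libraries were above at 122 genes (0.954%) and below at 124 (0.969%), and Control libraries at 19 (0.149%) and 51 (0.399%). At 21 genes (0.164%) all CsA libraries lay below all Control libraries while all LPS+CsA libraries lay above all LPS libraries. The mirror pattern was seen at 15 genes (0.117%). The symbols with the first pattern were ARNT2, a partner of bHLH-PAS transcription factors, DLG2, a synaptic scaffold, the keratins KRT75 and KRT82, and TTC39C. No gene with a symbol carried the second. At 12 genes (0.0938%) all Control and LPS+CsA libraries lay above all LPS and CsA libraries, and at 6 (0.0469%) below them.

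**Figure D2:**
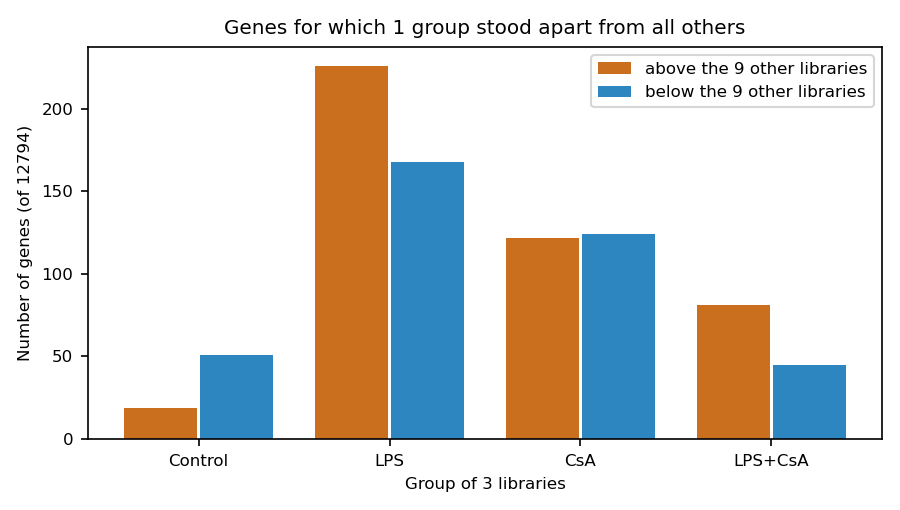
Number of tested genes at which the 3 libraries of 1 group all lay above or all below the 9 other libraries. LPS libraries stood apart at the most genes, 226 above and 168 below, and Control libraries at the fewest.

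Transcripts of antibody-secreting cells were among the genes with an interaction above 0. JCHAIN, which joins polymeric IgA and IgM, stood at 31.1, 31.0 and 120.4 FPKM in Control, 14.7, 21.7 and 20.4 in LPS, 10.2, 38.2 and 17.1 in CsA, and 65.7, 99.6 and 56.3 in LPS+CsA. Every LPS+CsA library was above every LPS library, while the CsA and Control libraries overlapped. The JCHAIN interaction was 3.21 ± 0.76 (SE; limma, unadjusted p = 0.00151, adjusted p = 0.914). On the log2 scale CsA minus Control was -1.33 and LPS+CsA minus LPS was 1.89. Adding the separate effects of LPS and CsA on the log2 scale predicts 6.85 FPKM for the combined treatment, against 71.7 FPKM from the LPS+CsA log mean.

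MZB1, an endoplasmic reticulum chaperone of plasma cells, stood at 2.46, 4.25 and 9.39 FPKM in Control, 1.06, 1.53 and 1.83 in LPS, 1.50, 3.25 and 2.32 in CsA, and 3.45, 12.1 and 5.81 in LPS+CsA. The LPS libraries were the lowest except that CsA replicate 1 fell within their range, and all LPS+CsA libraries exceeded all LPS libraries. Its interaction was 2.39 ± 0.62 (limma, unadjusted p = 0.00264). IGHM, the constant region of the IgM heavy chain, stood at 2.33, 3.56 and 5.02 FPKM in Control, 1.81, 2.03 and 1.80 in LPS, 2.32, 2.36 and 1.65 in CsA, and 5.55, 13.2 and 4.00 in LPS+CsA. Every LPS+CsA library was above every LPS and CsA library, and the Control libraries lay above LPS and overlapped CsA and LPS+CsA. The IGHM interaction was 1.97 ± 0.48 (limma, unadjusted p = 0.00172). DERL3, a protein of endoplasmic reticulum protein disposal that plasma cells express, had an interaction of 1.02 ± 0.71 (limma, unadjusted p = 0.178), which was 0.49 without Control replicate 1 and 0.64 without LPS replicate 1. On the plasma-cell list 3 of 4 tested members had an interaction above 0 at an unadjusted p under 0.05, against 1.75% of tested genes. The list's median was 2.18 against -0.02 over all genes. The authors list LPS+CsA above LPS for all 4, so this count and this median are favoured by that choice.

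The authors' annotation marks 11 tested identifiers as immunoglobulin chains, a group put together after their values had been seen. All 11 had an interaction above 0 at an unadjusted p under 0.05, against 1.75% of all tested genes. Their interactions ran from 1.97 to 4.15 with a median of 2.91. At the lambda chain ENSOCUG00000024191 adding the separate effects of LPS and CsA predicts -0.226 FPKM. Since FPKM cannot be below 0, the interaction of that chain could only lie above 0. The annotation covers only the 437 identifiers that the authors list, so other immunoglobulin genes among those tested cannot be seen. Chains of this family have near-identical stretches, so reads may be split between them and the 11 are not independent. Their summed FPKM lessens the effect of that split but does not remove it. FPKM is scaled to length, and chains that cannot be seen may take reads. The sum was 74.6, 82.6 and 226 in Control and 31.7, 38.8 and 46.1 in LPS. It was 17.9, 78.5 and 58.3 in CsA, and 167, 211 and 143 in LPS+CsA. The LPS+CsA libraries were above every LPS and CsA library and inside the Control range. CsA was below Control at 10 of the 11 chains, with a median difference of -1.22, and LPS+CsA was above LPS at all 11, with a median of 1.44. Since the authors list 9 of the 11 with LPS+CsA above LPS and 8 with LPS below Control, only the CsA libraries are free of that selection. All 3 chains that the authors did not list in LPS against Control had a lower mean in CsA than in Control. The CsA and Control libraries overlapped at IGHM and ENSOCUG00000024526, however. The interaction of ENSOCUG00000024526 was 2.93 over all libraries and 1.85 without CsA replicate 1. Leaving these chains unlisted also drew on the Control libraries.

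At 3 of the chains every CsA library was below every Control library and every LPS+CsA library above every LPS library. This pattern was seen at 0.164% of all tested genes. An IgM heavy-chain variable region (ENSOCUG00000023169) stood at 8.46, 8.19 and 49.2 FPKM in Control, 3.41, 6.20 and 5.07 in LPS, 2.86, 5.91 and 2.63 in CsA, and 41.7, 16.5 and 31.2 in LPS+CsA. This was the largest interaction of the 11, at 4.15 ± 0.84 (limma, adjusted p = 0.792). A second IgM variable region (ENSOCUG00000029664) had an interaction of 2.95 ± 0.57 and a kappa chain (ENSOCUG00000028173) one of 2.32 ± 0.50. In the LPS libraries the authors' read counts were 5, 11 and 9 for ENSOCUG00000023169 and 10, 14 and 16 for ENSOCUG00000028173. They were 105, 128 and 93 for ENSOCUG00000029664. The LPS levels of ENSOCUG00000023169 and ENSOCUG00000028173 thus rest on few reads. The Control range was wide at all of these genes, with replicate 3 highest. Without Control replicate 3 the interaction of JCHAIN was 2.57, and that of MZB1 1.96.

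**Figure D3:**
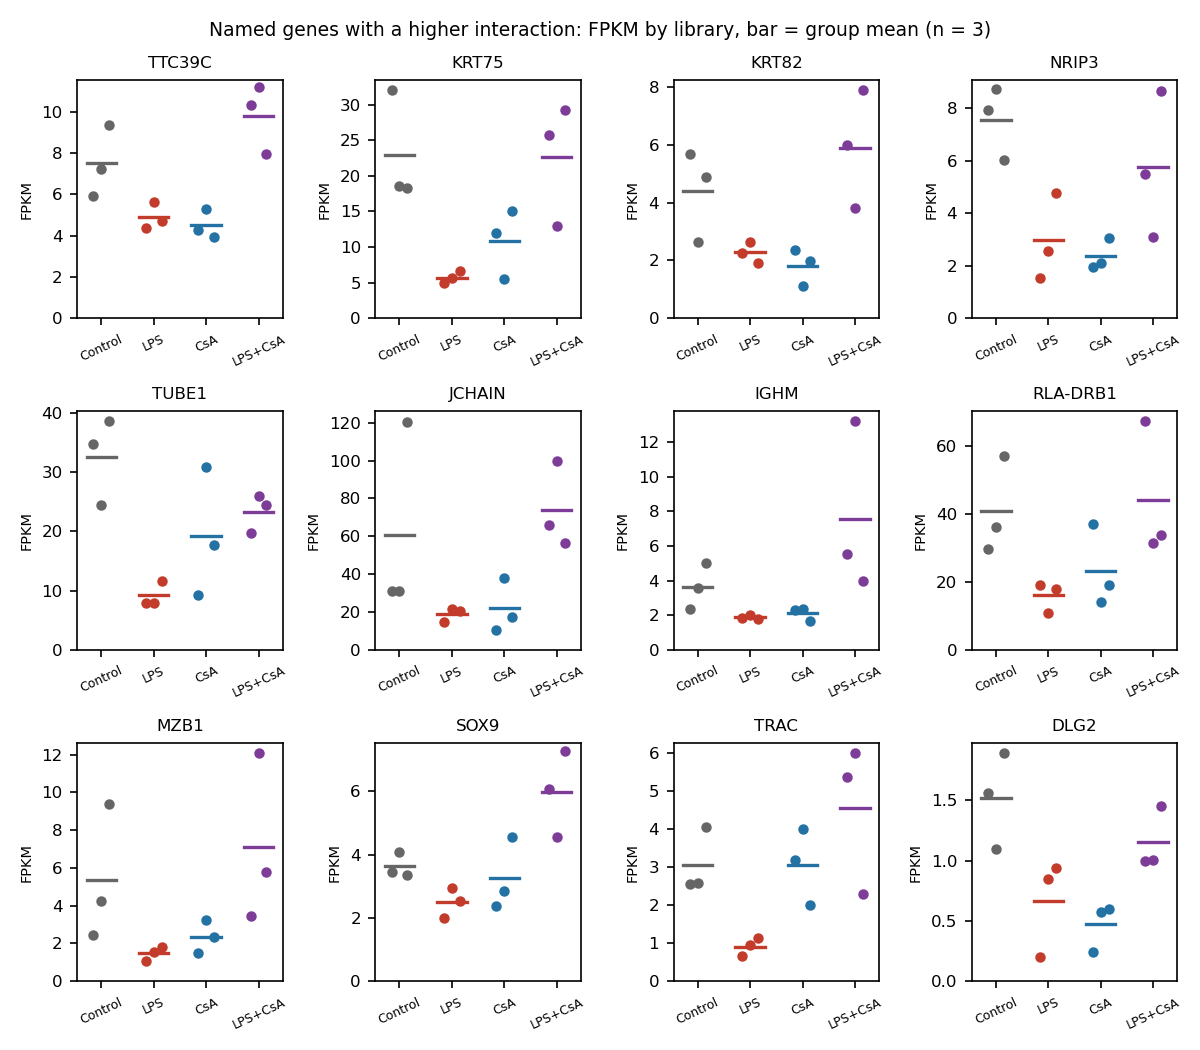
FPKM in each library for the 12 named genes with the smallest p on the higher side of the interaction, by group, on a linear axis from 0. Each point is 1 animal and the bar is the mean of 3. For KRT75, KRT82, TTC39C and DLG2 the CsA points lie below all Control points and the LPS+CsA points above all LPS points.

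RLA-DRB1, a rabbit MHC class II beta chain that presents peptides to helper T cells, stood at 29.7, 36.3 and 57.1 FPKM in Control, 19.2, 10.9 and 18.0 in LPS, 37.0, 14.0 and 18.9 in CsA, and 67.4, 31.4 and 33.8 in LPS+CsA. Every LPS+CsA library exceeded every LPS library, and its interaction was 2.21 ± 0.56 (limma, unadjusted p = 0.00237). The T-cell receptor alpha constant region, TRAC, stood at 2.54, 2.59 and 4.06 FPKM in Control, 0.655, 0.948 and 1.13 in LPS, 3.18, 3.99 and 1.99 in CsA, and 5.36, 5.99 and 2.29 in LPS+CsA. LPS was the only group in which TRAC lay apart from the others, and the CsA and Control means were alike, with a difference of -0.01. Its interaction was 1.49 ± 0.42 (limma, unadjusted p = 0.00465). The authors' deposited table gives TRAC only 8, 12 and 14 reads in the LPS libraries, so these levels rest on few reads.

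Leukocyte and red-cell transcripts varied between animals beside these genes. Of 24 leukocyte markers, 7 had a name among the tested genes. Their summed FPKM ran from 53.1 to 412 in Control, 77.3 to 101 in LPS, 65.4 to 429.6 in CsA and 141 to 598 in LPS+CsA. The 7 include JCHAIN, MZB1, DERL3 and TRAC, so this sum is not independent of the genes above. None of the 7 was at 0 in any library. Of 8 red-cell markers, HBB2, a beta-globin, and ALAS2, the erythroid enzyme of haem synthesis, were tested, and their sum ran from 211 to 379.6 in Control, 109.7 to 128 in LPS, 140.1 to 202 in CsA and 120.3 to 339 in LPS+CsA. Both had an interaction above 0 at an unadjusted p under 0.05 with limma, which 1.75% of all tested genes had. HBB2 was at 1.45 ± 0.49 and ALAS2 at 1.23 ± 0.39. The authors list both with LPS below Control, so this direction is favoured by that choice. The part of blood or leukocyte content in the antibody and T-cell genes was not tested.

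The hair-follicle keratins KRT75 and KRT82 both had crossed patterns. KRT75 stood at 32.1, 18.5 and 18.3 FPKM in Control, 4.90, 5.60 and 6.58 in LPS, 11.9, 5.54 and 15.1 in CsA, and 25.7, 13.0 and 29.2 in LPS+CsA. LPS alone and CsA alone each left KRT75 below every Control library, whereas the combination was above every LPS library and overlapped Control. The KRT75 interaction was 2.82 ± 0.52 (limma, adjusted p = 0.563), and the additive prediction was 2.18 FPKM against 21.4 from the LPS+CsA log mean. KRT82 stood at 5.68, 2.64 and 4.89 FPKM in Control, 2.27, 2.65 and 1.92 in LPS, 2.38, 1.11 and 1.98 in CsA, and 5.99, 3.81 and 7.91 in LPS+CsA. Its CsA libraries were all below Control and its LPS+CsA libraries all above LPS, with an interaction of 1.95 ± 0.40 (limma, adjusted p = 0.792).

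TTC39C, a tetratricopeptide-repeat protein, had the smallest p of any gene with a symbol. It stood at 5.92, 7.24 and 9.37 FPKM in Control, 4.39, 5.65 and 4.74 in LPS, 4.28, 5.32 and 3.96 in CsA, and 10.3, 11.2 and 7.95 in LPS+CsA. The 3 LPS+CsA libraries lay above every LPS and CsA library, and the LPS and CsA libraries were at a common level. Its interaction was 1.47 ± 0.25 (limma, unadjusted p = 0.000121, adjusted p = 0.517), and over the alternatives on a log2 scale it stayed between 1.32 and 1.68. NRIP3, a nuclear receptor interacting protein, stood at 7.92, 8.72 and 6.02 FPKM in Control, 1.54, 2.58 and 4.79 in LPS, 1.96, 2.09 and 3.07 in CsA, and 5.49, 3.10 and 8.66 in LPS+CsA. The LPS and CsA libraries were all below Control, and its interaction was 2.11 ± 0.48 (limma, unadjusted p = 0.00114).

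TUBE1, epsilon tubulin of centrioles and basal bodies, stood at 34.7, 24.5 and 38.7 FPKM in Control, 7.93, 7.93 and 11.6 in LPS, 9.19, 30.8 and 17.8 in CsA, and 19.7, 25.9 and 24.4 in LPS+CsA. LPS was low and the combination high without overlap, CsA spanned both, and the interaction was 2.13 ± 0.49 (limma, unadjusted p = 0.00115). The other tested genes of the multiciliated-cell list did not follow TUBE1. FOXJ1, the master factor of motile cilia, had an interaction of -0.60 ± 0.85 (limma, unadjusted p = 0.496), with a range of -1.33 to 0.19 when single libraries were left out, and the list's median over 6 members was -0.57, with a range of -1.16 to 0.11 when single libraries were left out.

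SOX9, a transcription factor of gland epithelium, stood at 3.45, 4.09 and 3.35 FPKM in Control, 1.98, 2.96 and 2.54 in LPS, 2.39, 2.85 and 4.56 in CsA, and 6.08, 4.57 and 7.27 in LPS+CsA. The LPS+CsA libraries were above those of every other group, and LPS was below Control. SOX9 had an interaction of 1.13 ± 0.30 (limma, unadjusted p = 0.00294). GREM1, a secreted inhibitor of bone morphogenetic proteins, had an interaction of 1.67 ± 0.57 (limma, unadjusted p = 0.0139), but stood below 5 FPKM in every library. DLG2 was lower still, between 0.205 and 1.89 FPKM, with an interaction of 1.17 ± 0.33. Adding the separate effects predicts -0.148 FPKM for GREM1 and -0.0453 for DLG2. Since FPKM cannot be below 0, their interactions could only lie above 0. For SOX9, as for the other genes named so far on this side, the interaction stayed above 0 when any single library was left out. Choosing genes by small p on these same libraries favours that outcome.

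Chemokines and NF-kB feedback genes also lay above 0 in the fit on all libraries, all 4 and all 5 tested, and the neutrophil chemokine CXCL8 was at -0.08 without Control replicate 3. All 9 have a name because the authors list LPS+CsA above LPS for them, so their direction is favoured by that choice. CX3CL1, a membrane-bound chemokine, stood at 3.78, 3.56 and 39.8 FPKM in Control, 2.88, 7.74 and 7.42 in LPS, 2.86, 6.14 and 4.85 in CsA, and 23.3, 13.4 and 46.8 in LPS+CsA. Its LPS+CsA libraries were above every LPS and CsA library, but Control replicate 3 was as high, and the interaction was 2.78 ± 1.08 (limma, unadjusted p = 0.0260). CXCL10, a chemokine for activated T cells, stood at 2.15, 5.39 and 50.0 FPKM in Control and at 2.46, 1.46 and 10.1 in LPS. It was at 3.13, 4.45 and 16.1 in CsA, and at 25.3, 12.6 and 64.6 in LPS+CsA. Replicate 3 was highest in every group, and the CXCL10 interaction was 3.13 ± 1.42 (limma, unadjusted p = 0.0503). Without Control replicate 3 the interactions were 1.74 for CX3CL1 and 1.96 for CXCL10.

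TNFAIP3, the deubiquitinase A20 that dampens NF-kB, stood at 3.15, 3.25 and 8.61 FPKM in Control, 2.57, 2.93 and 3.77 in LPS, 3.39, 4.81 and 2.97 in CsA, and 5.68, 5.38 and 12.5 in LPS+CsA. Its LPS+CsA libraries were above all LPS and CsA libraries, and the interaction was 1.28 ± 0.51 (limma, unadjusted p = 0.0282). BIRC3, an inhibitor of apoptosis and NF-kB target, had an interaction of 1.52 ± 0.74 (limma, unadjusted p = 0.0663), with replicate 3 highest in Control, CsA and LPS+CsA alike. The BIRC3 interaction was 0.93 without Control replicate 3 and 0.94 without LPS+CsA replicate 3. The NF-kB list had 1 of 5 tested members above 0 at an unadjusted p under 0.05, against 1.75% of all tested genes. Its median was 1.27, or 0.75 without LPS+CsA replicate 3 and 0.79 without Control replicate 3. For chemokines the count was 1 of 4 and the median 1.84, or 1.08 without Control replicate 3.

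Of the named genes with an unadjusted p under 0.05, 36 had an interaction above 0 and 5 below 0, against 224 (1.75%) and 168 (1.31%) over all tested genes. The authors' choice of the named genes on shared libraries can set this ratio, and it is not read as a result. LSM10, a subunit of the U7 particle that trims histone messages, stood at 12.7, 12.7 and 4.47 FPKM in Control, 13.7, 17.8 and 19.3 in LPS, 10.5, 6.17 and 10.9 in CsA, and 3.81, 1.83 and 1.51 in LPS+CsA. The 3 LPS+CsA libraries were the lowest of the series, and the CsA libraries did not lie apart from Control. Its interaction was -2.43 ± 0.52 (limma, adjusted p = 0.815), with 2.25 FPKM from the LPS+CsA log mean against an additive prediction of 16.5. The authors' deposited table gives LSM10 8, 5 and 4 reads in LPS+CsA, so this low level rests on few reads.

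WNT11, a secreted Wnt ligand that the authors' tables spell Wnt-11, stood at 2.24, 0.621 and 2.10 FPKM in Control, 2.50, 3.14 and 3.66 in LPS, 1.36, 1.11 and 1.72 in CsA, and 0.918, 1.04 and 1.11 in LPS+CsA. LPS was above every other group and LPS+CsA at or below the CsA level, with an interaction of -0.92 ± 0.36 (limma, unadjusted p = 0.0264) that was -0.60 without Control replicate 2. EFHD1, a mitochondrial calcium-binding protein, stood at 1.00, 1.30 and 1.04 FPKM in Control, 1.59, 1.96 and 2.95 in LPS, 2.43, 1.95 and 1.79 in CsA, and 1.25, 1.32 and 1.79 in LPS+CsA. Each agent alone put EFHD1 above every Control library, whereas the combination was nearer to Control, and the interaction was -0.88 ± 0.27 (limma, unadjusted p = 0.00694).

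PPP1R1A, an inhibitor of protein phosphatase 1, had an interaction of -1.09 ± 0.49 (limma, unadjusted p = 0.0480), or -0.70 without LPS replicate 1, and LOC100356870, annotated as a securin-like protein, one of -3.35 ± 1.19 (limma, unadjusted p = 0.0173). LOC100356870 stood at 0.796, 1.88 and 2.23 FPKM in Control, 11.7, 18.7 and 11.0 in LPS, 1.29, 1.37 and 18.8 in CsA, and 0.651, 0.314 and 7.50 in LPS+CsA. In CsA and in LPS+CsA replicate 3 stood far above the other 2 animals. The remaining 7 of the 12 named genes on this side had unadjusted p-values of 0.0501 to 0.0968 with limma and did not pass even before adjustment. They were GYG1, CTSE, MFSD9, ENPEP, TINAGL1, MAL and LOC100346274.

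CTSE, an aspartic protease of mucosal epithelia, stood at 12.9, 8.17 and 9.16 FPKM in Control, 24.2, 34.1 and 10.5 in LPS, 7.30, 58.7 and 18.6 in CsA, and 11.0, 10.3 and 11.7 in LPS+CsA. The combination was at the Control level, and CsA replicate 2 was the highest of the series. The CTSE interaction was -1.82 ± 0.84, and -1.07 without CsA replicate 2. MAL, an apical-sorting proteolipid of epithelia, stood at 2.48, 2.95 and 2.28 FPKM in Control, 6.75, 5.16 and 5.28 in LPS, 2.39, 16.4 and 20.8 in CsA, and 3.54, 4.11 and 11.4 in LPS+CsA. MAL was high in 2 of the 3 CsA animals, and its interaction was -1.63 ± 0.84, or -2.47 without CsA replicate 1. ENPEP, aminopeptidase A of angiotensin breakdown, had 1.65 FPKM in LPS+CsA replicate 1 against 12.4 and 15.8 in the other 2 animals, and an interaction of -1.67 ± 0.79. Without that library the ENPEP interaction was -0.84.

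**Figure D4:**
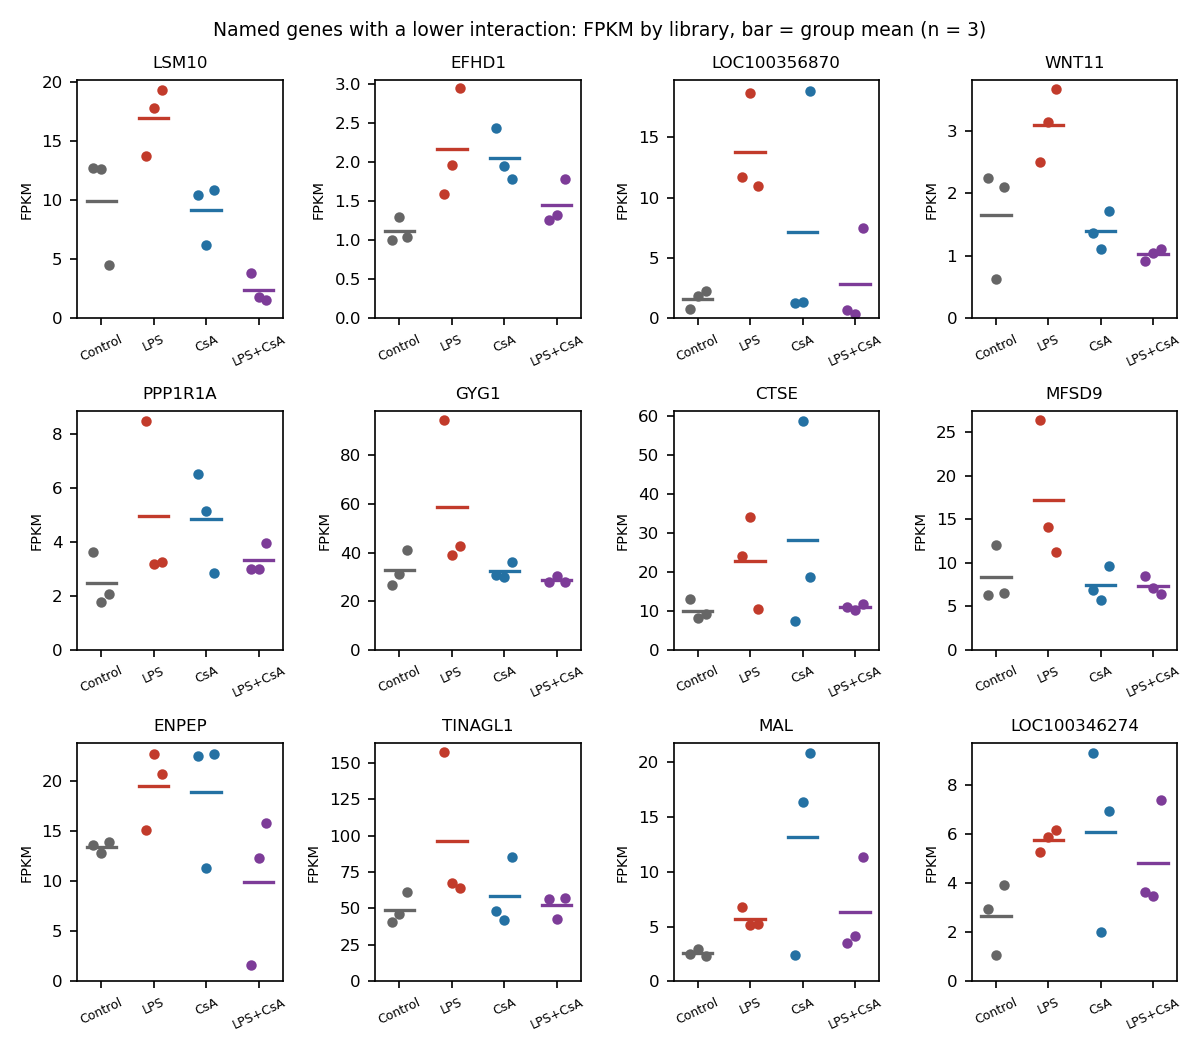
FPKM in each library for the 12 named genes with the smallest p on the lower side of the interaction, by group, on a linear axis from 0. Each point is 1 animal and the bar is the mean of 3. LSM10 is lowest in all 3 LPS+CsA libraries, and CsA replicates differ widely for CTSE, MAL and LOC100356870.

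Interferon-stimulated genes, which respond to type I interferon, had no uniform interaction. None of 8 tested members had an unadjusted p under 0.05 with limma, and 2 were above 0. ISG15, a ubiquitin-like antiviral protein, stood at 24.5, 93.8 and 59.1 FPKM in Control, 18.8, 12.6 and 29.1 in LPS, 22.3, 212 and 686 in CsA, and 45.6, 27.5 and 34.0 in LPS+CsA. CsA replicates 2 and 3 were high and replicate 1 was not, so the ISG15 interaction was -0.68 ± 1.37, with a range of -2.02 to 0.42 when single libraries were left out. The list's median was -0.41, but it was 0.48 without CsA replicate 3 and -1.42 without CsA replicate 1, so it has no settled sign.

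The neutrophil calgranulins S100A8, S100A9 and S100A12 were likewise set by single animals. S100A8 stood at 4.46, 19.1 and 166 FPKM in Control, 34.4, 44.1 and 48.2 in LPS, 62.7, 10.7 and 251 in CsA, and 129, 7.90 and 344 in LPS+CsA. Replicate 3 was highest in Control, CsA and LPS+CsA, and the S100A8 interaction was -0.34 ± 2.15. When single libraries were left out it ran from -1.67 to 1.19, and the median of the 3 genes, -0.09 over all libraries, from -1.31 to 1.19. PPIA, cyclophilin A and the protein that binds CsA, was the only tested member of the calcineurin list, at -2.34 ± 1.91 (limma, unadjusted p = 0.247). The PPIA interaction was -0.86 without CsA replicate 2, -1.21 without LPS+CsA replicate 3 and -3.54 without Control replicate 2. The PPIA identifier was listed at 0 FPKM in Control replicate 1 and at 0.113 to 0.359 in 4 other libraries. PPIA has near-identical copies elsewhere in mammalian genomes, so its values are uncertain.

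The other lists held few named members. The vascular and prostaglandin list had a median of -0.48 over 5 members with none at an unadjusted p under 0.05, the lipid list -0.30 over 3, the matrix and bone list -0.16 over 4, the solute carriers 0.66 over 4, and mucosal defence 0.45 over 3. The lipid median was 0.05 and the matrix median 0.33 without LPS replicate 1, and the vascular median 0.04 without LPS+CsA replicate 3. Leaving out single libraries gave mucosal medians of 0.03 to 0.81, and that median was -0.60 among genes with a mean of at least 5 FPKM. The solute-carrier median was 0.39 without LPS+CsA replicate 3. The gland and Wnt list had 2 members above 0 and 1 below 0 at an unadjusted p under 0.05 among 4, namely SOX9, GREM1 and WNT11, and a median of 0.87, or 0.54 without LPS+CsA replicate 3. Of the 22 lists, 10 had fewer than 3 tested members. Among all 261 named genes, 41 had an unadjusted p under 0.05, or 15.7%, against 3.06% of all tested genes, in a set chosen by the authors on shared libraries.

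**Figure D5:**
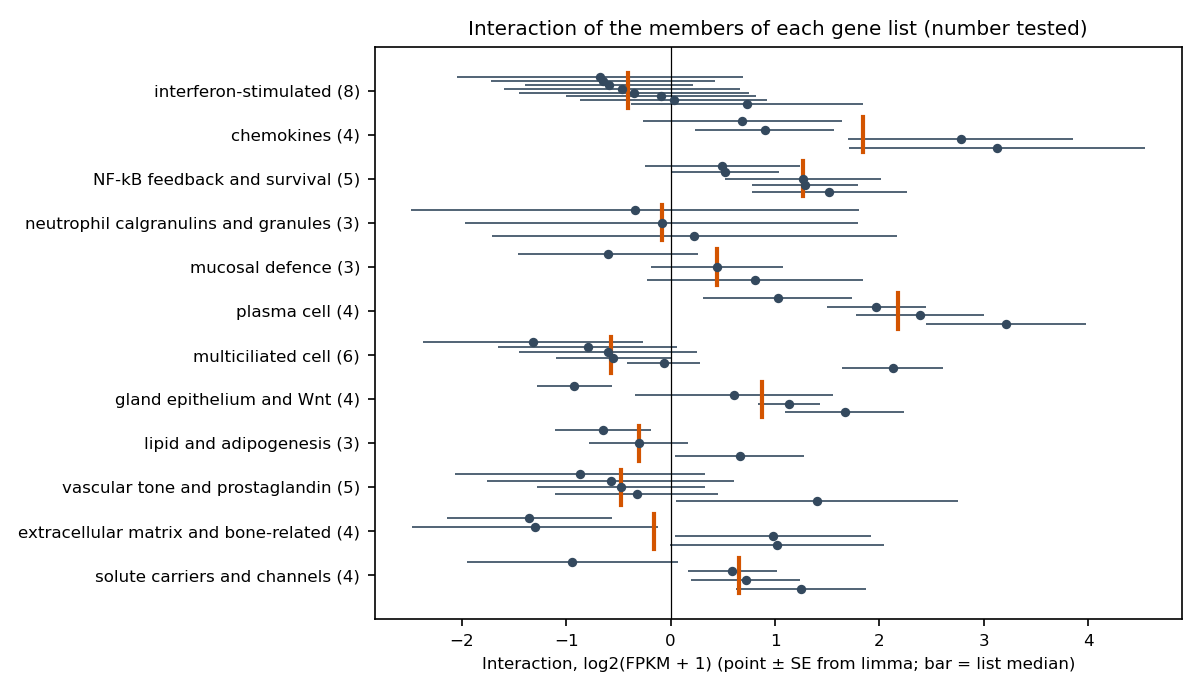
Interaction in log2(FPKM + 1) of each tested member of the gene lists with at least 3 members, with the list median. Plasma-cell, chemokine and NF-kB members all lie above 0, and interferon-stimulated and calgranulin members lie on both sides.

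Among genes without a symbol, 2 on each side had the smallest p. ENSOCUG00000017162 had the smallest p of all genes and stood at 10.1, 7.20 and 8.33 FPKM in Control, 5.94, 5.47 and 6.61 in LPS, 5.30, 4.22 and 4.84 in CsA, and 10.4, 9.46 and 8.65 in LPS+CsA. Both single agents lay below every Control library, and the combination above every single-agent library, with an interaction of 1.30 ± 0.19 (limma, adjusted p = 0.497). ENSOCUG00000017878 was its mirror, at 12.2, 13.9 and 14.9 FPKM in Control, 23.8, 17.4 and 16.3 in LPS, 22.2, 21.5 and 22.3 in CsA, and 11.4, 15.1 and 12.5 in LPS+CsA. Its interaction was -1.17 ± 0.21 (limma, adjusted p = 0.563).

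ENSOCUG00000013177 stood at 4.05, 6.36 and 3.77 FPKM in Control, 12.2, 7.27 and 11.4 in LPS, 8.98, 12.6 and 8.58 in CsA, and 7.98, 5.45 and 4.46 in LPS+CsA, with an interaction of -1.66 ± 0.36 (limma, adjusted p = 0.815). Both single agents were above every Control library there, and LPS+CsA overlapped Control. ENSOCUG00000009991, annotated as a type 1 phosphatidylinositol 4,5-bisphosphate 4-phosphatase, was listed at 2.73, 3.64 and 4.56 FPKM in Control, 0, 0 and 0.177 in LPS, 0 in all 3 CsA libraries, and 0, 0.0925 and 1.40 in LPS+CsA. Each agent alone left it at or near 0, and adding the separate effects predicts -0.770 FPKM, a level no gene can have. Its interaction was 2.58 ± 0.44 (limma, adjusted p = 0.517), and 6.32 with a pseudocount of 0.1 FPKM. FPKM cannot be below 0, so a prediction below 0 forces an interaction above 0. Such a prediction was found for 56 of all tested genes (0.438%). Among the 224 genes with an interaction above 0 at an unadjusted p under 0.05 it was found for 24 (10.7%). The gap between these shares is favoured by that floor and is not read as a result.

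The authors' lists were read on a comparison that did not define them, after leaving out genes also listed in the authors' other comparison. That exclusion drew on the Control libraries for the LPS+CsA lists and on the LPS+CsA libraries for the LPS lists. The values below are therefore not free of selection. The 92 genes listed only with LPS+CsA above LPS had a median CsA effect without LPS of 0.11, with 56 above and 36 below 0. The median over all genes was 0.03, with 7054 above and 5739 below. The 33 genes listed only as lower had a median of -0.09, with 10 above and 23 below 0. The 108 genes listed only as higher in LPS than in Control kept a positive LPS effect in the presence of CsA at 89 of 108, with a median of 0.47 against 0.008 over all genes. For the 67 listed only as lower in LPS, that median was 0.05, with 35 above and 32 below 0.

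A deposited table lists genes that were lower with LPS and higher again in LPS+CsA, or the reverse. Of 46 listed in the first direction 44 were tested, with a median interaction of 1.24, and 21 had an unadjusted p under 0.05 above 0, against 1.75% of all tested genes. Of 34 in the reverse direction 30 were tested, with a median of -0.75, and 4 had an unadjusted p under 0.05 below 0, against 1.31%. Both counts are favoured by that choice. The CsA effect without LPS had a median of -0.15 in the first set, -0.26 in the second and 0.03 over all genes, but its Control libraries entered the choice too.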

How the data were processed

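Uterine body RNA of 12 rabbits was sequenced, 1 library per animal, from 1 µg of total RNA. Per the submitters' processing notes, the tools were TopHat2, Cufflinks and Cuffnorm. No version, genome build or annotation is stated there. The authors deposited FPKM per library, without pooling. Their deposited tables of listed genes also hold whole-number read counts, log2 fold changes and p-values, with edgeR and a 2-fold threshold named per the file headers. The read counts served only to show low depth, and the fold changes and p-values only to read which genes were listed and in which direction.

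Values were tested as log2(FPKM + 1), so folds of low genes are understated. Limma 3.58.1 (R 4.3.3) was fitted to 4 group means over genes at 1 FPKM or more in at least 3 of 12 libraries, with an intensity trend, a two-sided moderated test and Benjamini-Hochberg adjustment over all 12794. P-values set each contrast against the spread between animals within groups, moderated towards the intensity trend. The main fit takes no account of replicate number. The fit was tested on simulated data. Genes named were the 12 symbols and 2 identifiers without a symbol with the smallest p on each side, up to 4 most abundant members of each list with at least 3 tested, and 4 abundant genes in each direction of the authors' opposite-direction table. ARNT2, PPIA, ENSOCUG00000025431 and the immunoglobulin chains were named after their values had been seen, and HBB2 and ALAS2 as markers of red cells. One gene that this rule picks is not reported here. The contrast, gene lists and named genes were chosen with earlier results of these data known. Alternatives were the pseudocount, scale, filter, normalization, variance model, library weights, replicate block and each library left out. No sequences were used.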

Additional observations from a re-analysis of the deposited data

Results flagged for a closer look

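At 10 of the genes given above, all CsA libraries lay on one side of all Control libraries. All LPS+CsA libraries lay on the other side of all LPS libraries. Each library is a different animal, so the pattern compares groups and not the same animals with and without CsA. These 10 genes were picked out by that pattern. The interaction itself was tested with limma for each, and none passed after adjustment over 12794 genes. The values were 1.30 for ENSOCUG00000017162, 1.47 for TTC39C, 2.82 for KRT75, 1.95 for KRT82, 1.17 for DLG2 and 1.07 for ARNT2. Of the immunoglobulin chains, ENSOCUG00000023169 was at 4.15, ENSOCUG00000029664 at 2.95 and ENSOCUG00000028173 at 2.32. In the reverse direction ENSOCUG00000017878 was at -1.17. Over all tested genes, 0.164% had the first crossed pattern and 0.117% the reverse.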

How the results depend on the processing

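With 3 animals a group and FPKM mostly of unknown depth, precision is limited by the spread between animals. Low genes such as LSM10, TRAC and MZB1, and some of the immunoglobulin chains, rest on few reads. No gene passed at an adjusted p of 0.05 under any alternative but the one without LPS replicate 1, where 1 did, and leaving out each library in turn gave 0 to 1. Leaving out LPS 1 and CsA 2 together, chosen after seeing the data, gave 1, with an adjusted p of 0.000111. In each case the gene was ENSOCUG00000025431, at -7.47 without LPS replicate 1.

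The count at an unadjusted p under 0.05 was 228 among genes with a mean of at least 5 FPKM, with 111 above 0. Fewer genes were tested there, and the shares were 2.47% and 1.20%, against 3.06% and 1.75% in the main fit. Leaving out single libraries gave totals of 314 to 611, with 183 to 288 above 0 and 117 to 348 below. Without Control replicate 2 it was 611, with 348 below 0, and the count below 0 was 257 without CsA replicate 1 and 273 with array weights. With the replicate block the count was 467, with 281 above 0, and 0 after adjustment; the samples share only a number. Residuals of same-numbered animals correlated by -0.09 to 0.42, with 8 of 18 pairs over 0.1 and 9 of 12 libraries closest to one of their own number. All 6 pairs among the replicate 3 animals were over 0.1, at 0.194 to 0.278, none of the replicate 1 pairs and 2 of the replicate 2 pairs. The cause of these shifts was not tested.

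All 24 named genes of smallest p kept their sign over the 23 alternatives, which their choice by p on these same libraries favours. Of all 83 named, 66 kept their sign. Leaving out single libraries reversed the others over these ranges: CDC20B -1.45 to 0.049, CXCL8 -0.079 to 1.14, EDN2 -1.63 to 0.044, FOXJ1 -1.33 to 0.19, DMBT1 -1.07 to 0.17, MX2 -0.36 to 1.37, ABCA6 -0.52 to 0.048, PTGIS -1.02 to 0.061 and ISG15 -2.02 to 0.42. For AGT the range was -1.37 to 0.34, for IRF7 -1.65 to 0.32, for ADAMDEC1 -0.97 to 0.61, for S100A8 -1.67 to 1.19, for S100A9 -1.03 to 1.49 and for S100A12 -1.31 to 1.15. With array weights DMBT1 was 0.023, S100A8 0.15 and S100A12 0.40. On the square root scale MX2 was -0.24, S100A8 1.87 and S100A12 0.80, in units of root FPKM. With a pseudocount of 0.1 ADAMDEC1 was 0.097. Leaving out LPS 1 and CsA 2 together put AGTR2 at -0.36, WNT6 at -0.23, PTGIS at 0.53 and S100A9 at -0.79. The cause was not tested.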
